A study of Rattus norvegicus with 6 samples.

Results

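The genes described here encode the receptor chains through which a mast cell or basophil senses stem cell factor, IL-3, GM-CSF, IL-33, IL-4 and thymic stromal lymphopoietin (TSLP), together with the gene for stem cell factor itself. They are Kit, Kitlg, Il3ra, Csf2ra, Csf2rb, Il1rl1, Il1rap, Il4r, Il2rg and Crlf2, 10 of the 22601 genes listed in the deposited table, and were taken by symbol, each of which was listed once. RNA-seq was run on 6 libraries of RBL-2H3, a leukemia line of rat basophils that serves as a stand-in for mast cells and basophils, with the genotype labelled WT in all of them. Control libraries (airc1 to airc3, n = 3) came from cells without PIO, and the others (airpio1 to airpio3, n = 3) from cells exposed for 6 h to 10 µM PIO, the series' PPARγ agonist. Control replicates 1 to 3 are airc1 to airc3 and PIO replicates 1 to 3 are airpio1 to airpio3. The control cells' vehicle and time in culture are not recorded here, and their effects cannot be told apart from that of PIO. All 6 are libraries of 1 leukemia line grown in serum with antibiotics, and the labels name no added cytokine. Whether replicates were separate cultures is not labelled, and p-values then reflect only the spread among these libraries, which may be technical.

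Stem cell factor binds the receptor tyrosine kinase Kit and is the main growth and survival factor of tissue mast cells. RBL-2H3 is known for a Kit receptor with an activating change in its kinase domain and for growth without added stem cell factor. IL-3 and GM-CSF each bind a private alpha chain, Il3ra or Csf2ra, and signal through the common beta chain Csf2rb and the kinase JAK2. IL-33, an alarm cytokine released by damaged epithelium, binds ST2, the product of Il1rl1, which pairs with the accessory protein Il1rap and signals through the adaptor MyD88. IL-4 uses Il4r with the common gamma chain Il2rg, and TSLP uses Crlf2 with the IL-7 receptor alpha chain.

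The libraries held between 14048202 and 15084729 reads, recovered from the FPKM values (fragments scaled to gene length and to the reads of the library). Correlations of log2 values between libraries, across tested genes, were 0.992 to 0.996. Control replicate 3 held the highest value of all 6 libraries for 4 members, Kit, Il1rl1, Csf2rb and Il2rg, and results are given without it where that matters. Mast cell and basophil genes were mostly abundant, with the summed level of a list of 13 between 4428 and 4589 FPKM in control libraries and between 4453 and 4616 FPKM with PIO. Srgn held the largest part of that sum (1626 to 1770 FPKM over the 6 libraries), while Ltc4s lay at 1.00 to 1.86 FPKM. Of those 13, 11 were abundant enough to test, whereas the tryptase gene Tpsab1 was listed at 0 in every library and Tpsb2 did not exceed 0.124 FPKM. Summed levels of 7 macrophage genes (1.69 to 1.98 FPKM in control, 1.77 to 2.09 with PIO), 8 T and B cell genes (1.59 to 1.75 and 0.934 to 1.56) and 8 neutrophil and eosinophil genes (0.0483 to 0.166 and 0 to 0.272) were low. C1qa, C1qb, C1qc, Cd3d, Cd8a, Mpo, Elane, Prg2 and Epx were listed at 0 throughout, as were 7172 of all 22601 genes. Such a 0 may also stem from reads assigned elsewhere. The 9 fibroblast and endothelial genes summed to between 66.9 and 70.4 FPKM in control and between 70.3 and 71.9 FPKM with PIO. Most of that was Pecam1 (61.2 to 67.0 FPKM), an adhesion gene that blood cells also express. The collagen gene Col3a1 was detected in every library at 4.57 to 5.44 FPKM (307 to 380 reads), and Dcn was listed at 0.

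Promoter windows of the 2 most abundant members, Kit and Il1rl1, and of the neighbours Csf2ra and Crlf2 are shown because the levels below turn on these genes. The windows run from 250 bases before to 50 bases after the gene start in RefSeq (GRCr8), 5′ to 3′ on the strand of the gene. The annotation places each window across the upstream flank and the first transcribed bases of its gene. Capitals mark the letters CANNTG, the E-box core that basic helix-loop-helix factors such as MITF bind, and GATA on either strand, the core bound by GATA factors.
Kit (GRCr8 chr14:32978763-32979062, minus strand): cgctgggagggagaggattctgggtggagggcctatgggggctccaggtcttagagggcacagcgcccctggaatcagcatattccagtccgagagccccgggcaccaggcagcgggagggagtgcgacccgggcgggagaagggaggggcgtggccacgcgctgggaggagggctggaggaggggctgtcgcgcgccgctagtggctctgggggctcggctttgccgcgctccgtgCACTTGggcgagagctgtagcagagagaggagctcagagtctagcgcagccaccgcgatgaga
Il1rl1 (GRCr8 chr9:50203388-50203687, plus strand): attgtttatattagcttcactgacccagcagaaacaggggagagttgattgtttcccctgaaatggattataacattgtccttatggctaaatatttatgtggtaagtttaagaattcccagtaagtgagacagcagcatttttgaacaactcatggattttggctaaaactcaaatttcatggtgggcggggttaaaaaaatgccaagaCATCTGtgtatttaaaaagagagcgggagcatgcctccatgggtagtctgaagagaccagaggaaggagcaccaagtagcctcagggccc
Csf2ra (GRCr8 chr14:118068-118367, minus strand): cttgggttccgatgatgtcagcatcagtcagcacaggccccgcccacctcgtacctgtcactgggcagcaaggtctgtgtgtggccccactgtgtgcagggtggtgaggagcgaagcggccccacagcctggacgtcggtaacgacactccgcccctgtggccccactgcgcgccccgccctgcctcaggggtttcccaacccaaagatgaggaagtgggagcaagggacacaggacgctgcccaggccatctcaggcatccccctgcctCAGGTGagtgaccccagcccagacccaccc
Crlf2 (GRCr8 chr14:118682-118981, plus strand): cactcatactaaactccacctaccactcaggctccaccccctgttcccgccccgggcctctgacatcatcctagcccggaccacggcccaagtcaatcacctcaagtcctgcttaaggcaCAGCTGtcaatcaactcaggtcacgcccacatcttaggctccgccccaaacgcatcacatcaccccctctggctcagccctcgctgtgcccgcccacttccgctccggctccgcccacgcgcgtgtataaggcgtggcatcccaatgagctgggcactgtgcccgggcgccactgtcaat

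A RefSeq window was found for 9 of the 10 members, 10 windows in all because Il1rap had 2. CANNTG occurred in 7 of these 10 windows, against 72.1% of all 33469 windows of the same 300 bases. GATA occurred in 1 of the 10, that of Il3ra with 2 matches, against 60.5% of all windows. The members' windows differed in base composition, with a GC content of 69.0% for Kit and 42.0% for Il1rl1. The direct repeat bound by PPAR and RXR, searched as AGGTCA, any 1 base and AGGTCA on both strands, was in none of the 10 and in 18 of all windows (0.0538%). No GATA match overlapped an E-box match in these windows, and the FPKM values do not tell which start site the cells used.

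The members lay between percentile 20.9 (Kitlg) and percentile 98.6 (Kit) of the genes above 0. Kit was the most abundant, at 303 ± 26.5 FPKM (SD over the 6 libraries) and rank 222 among the 15429 genes above 0. Il1rl1 followed at 204 ± 13.9 FPKM (rank 359) and Csf2rb at 139 ± 9.15 FPKM (rank 579). Il2rg (55.8 ± 1.48 FPKM), Crlf2 (18.6 ± 1.24), Il3ra (11.0 ± 0.40), Il4r (8.74 ± 0.474) and Il1rap (4.30 ± 0.684) were intermediate. Csf2ra stood at 0.840 ± 0.128 FPKM and Kitlg at 0.050 ± 0.0285 FPKM (rank 12201). The ranges of neighbours in this order over the 6 libraries did not overlap for any of the 9 neighbouring pairs. The closest pair was Il3ra and Il4r, where the lowest Il3ra value was 10.4 FPKM and the highest Il4r value 9.33 FPKM.

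**Figure D1:**
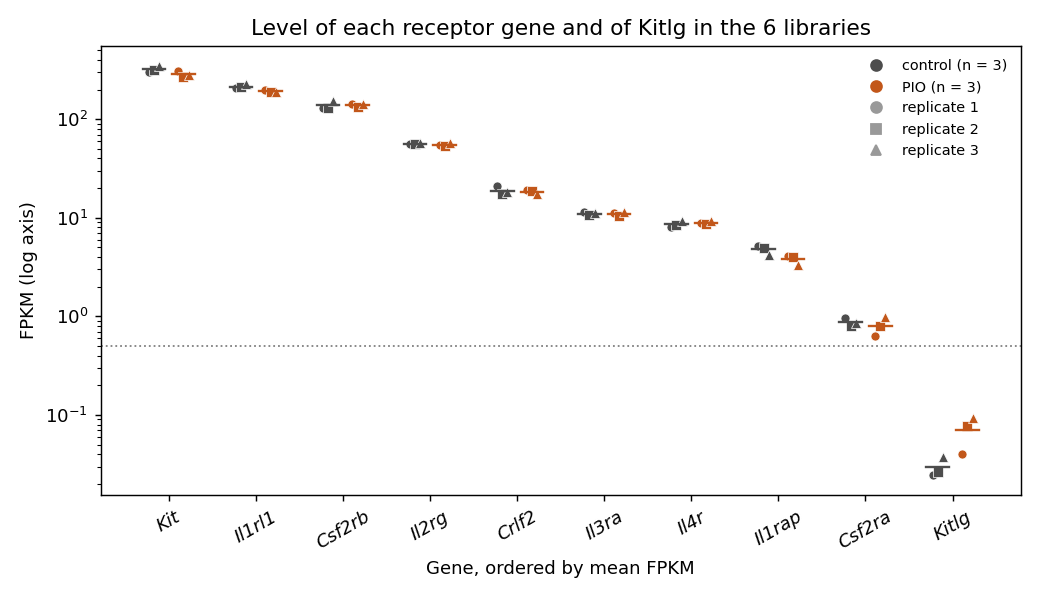
FPKM (log axis) of the 10 genes in each library, ordered by their mean; points are libraries, grey for control and orange for PIO, short bars are group means (n = 3), and the dotted line is the minimum mean of 0.5 FPKM for testing. Kit, Il1rl1 and Csf2rb lie above 100 FPKM in every library, and Kitlg lies below 0.1 FPKM.

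After PIO no member changed by the test across all genes. The test was limma on log2(FPKM + 0.5) for genes whose mean reached 0.5 FPKM, and 9 of the 10 members passed that minimum. Of these 9, 0 had an adjusted p under 0.05, while 4 of all 10410 tested genes did (0.0384%, all 4 higher with PIO). At an unadjusted limma p under 0.05 there were 3 of the 9 members, Kit, Il1rl1 and Il1rap, and 12.5% of all tested genes. In limma-voom on the recovered reads 0 members passed as well. The 9 members comprised 7 with a log2 fold change below 0 and 2 above 0, with a median of -0.04; with TPM and median-of-ratios scaling Csf2rb also lay below 0. Over all tested genes the median was 0.01 and 54.0% lay above 0. PIO and control values did not overlap in 2 of the 9 members (22.2%), both lower with PIO, a share near the 18.5% of all tested genes (8.09% lower). That count was 4 without control replicate 3, where Csf2rb and Il4r were added as higher with PIO. It was also 4 without PIO replicate 3, where Csf2ra and Il2rg were added as lower. Leaving out control replicate 1 or PIO replicate 1 gave 3 each, with Kit added as lower. Fewer libraries make non-overlap easier to reach, and the share of all tested genes was not counted for these fits. In bulk RNA, fewer cells of a kind and less RNA per cell cannot be told apart.

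Kit (GeneID 64030), the stem cell factor receptor, was at 302, 315 and 344 FPKM across airc1 to airc3 and at 308, 269 and 280 FPKM across airpio1 to airpio3. PIO replicates 2 and 3 were below every control value, while PIO replicate 1 lay above control replicate 1. The group means were 320 ± 21.5 and 286 ± 20.2 FPKM (SD, n = 3), a difference of -10.7% that did not pass (log2 fold change -0.16, SE 0.06, limma adjusted p = 0.371). Between 20322 and 26787 reads per library lay behind these values. Control replicate 3 had the highest Kit value, and without it the log2 fold change was -0.11 (limma adjusted p = 0.49). Without PIO replicate 1 it was -0.22 (limma adjusted p = 0.204).

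Kitlg (GeneID 60427), which encodes stem cell factor and is normally made by stromal cells, had 2, 2 and 3 reads across airc1 to airc3 and 3, 6 and 7 reads across airpio1 to airpio3. These are 0.0247, 0.0265 and 0.0379 FPKM, and 0.0398, 0.0782 and 0.0927 FPKM. Its values were too low for the test. The summed reads, 7 against 16, gave a PIO to control ratio of 2.37 with an exact 95% interval of 0.921 to 6.80, which covers counting error alone, as these reads have no molecular identifiers. Every PIO value lay above every control value, but the interval includes equal levels. RNA of the receptor was abundant in these libraries while RNA of its ligand was at the level of single reads.

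The genes whose profile over the 6 libraries was most like that of Kit were Med13l, a subunit gene of the Mediator kinase module, Mdm4, a p53 inhibitor gene, and Nfxl1. Likeness was the root mean square difference of log2(FPKM + 0.5) deviations from each gene's own mean, compared with 7758 other genes of at least 5 FPKM. It was 0.0119 for Med13l, 0.0183 for Mdm4 and 0.0208 for Nfxl1, against a median of 0.136 over all genes compared. A gene that did not vary would score 0.115, the root mean square of Kit's own deviations. Med13l was at 18.2, 19.0 and 20.5 FPKM across airc1 to airc3 and at 18.8, 16.3 and 16.8 FPKM across airpio1 to airpio3. Like Kit, it was highest in control replicate 3 and lowest in PIO replicate 2. This follows from its selection over these same 6 values and is no separate result.

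Csf2rb (GeneID 171081), the beta chain shared by the IL-3, GM-CSF and IL-5 receptors, was at 130, 131 and 154 FPKM across airc1 to airc3 and at 142, 133 and 142 FPKM across airpio1 to airpio3. The PIO values lay between control replicates 2 and 3. Means were 139 ± 13.6 and 139 ± 5.03 FPKM (SD, n = 3). The log2 fold change was 0.01 (95% interval -0.15 to 0.16, limma adjusted p = 0.981), and its sign turned under other scalings. Without control replicate 3 it was 0.085 (limma adjusted p = 0.452), and every PIO value lay above the remaining control values. Il3ra (GeneID 246144), the IL-3 binding chain, was at 11.3, 10.6 and 11.2 FPKM across airc1 to airc3 and at 11.1, 10.4 and 11.3 FPKM across airpio1 to airpio3. The groups overlapped almost entirely (log2 fold change -0.01, 95% interval -0.14 to 0.12, limma adjusted p = 0.953).

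Csf2ra (GeneID 652957), the GM-CSF binding chain, was at 0.970, 0.807 and 0.852 FPKM across airc1 to airc3 and at 0.636, 0.794 and 0.981 FPKM across airpio1 to airpio3. Only 22 to 36 reads per library lay behind it, and the PIO values enclosed the control values (log2 fold change -0.08, 95% interval -0.39 to 0.22, limma adjusted p = 0.809). Within a library, Csf2rb exceeded Il3ra by 11.5 to 13.8 times and Csf2ra by 135 to 223 times in FPKM. RNA of the IL-3 binding chain was 11.5 to 17.5 times that of the GM-CSF binding chain. Il5ra, the IL-5 binding chain of the same family, was detected with 11 to 20 reads per library and a mean of 0.185 FPKM. RNA of the shared chain was above that of each of its 3 private partners in every library.

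Csf2ra and Crlf2, which encodes the TSLP binding chain, are neighbours on rat chromosome 14 and are read in opposite directions from starts 815 bases apart in RefSeq. Their levels differed by 17.7 to 30.2 times within a library. Crlf2 (GeneID 171499) was at 20.8, 17.6 and 18.3 FPKM across airc1 to airc3 and at 19.2, 18.5 and 17.4 FPKM across airpio1 to airpio3. Control replicate 1 was the highest, PIO replicate 3 the lowest, and the groups overlapped (log2 fold change -0.04, 95% interval -0.20 to 0.12, limma adjusted p = 0.845). Il7r, the partner chain for TSLP, was not analysed here.

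IL-33 receptor chains were the 2 tested members, of 9, whose PIO and control values did not overlap. That share, 22.2%, was near the 18.5% of all tested genes. Il1rl1 (GeneID 25556), the IL-33 binding chain ST2, was at 206, 212 and 226 FPKM across airc1 to airc3 and at 199, 191 and 189 FPKM across airpio1 to airpio3. Every PIO value lay below every control value. The means were 215 ± 10.3 and 193 ± 5.37 FPKM (SD, n = 3), a difference of -10.0%. The log2 fold change was -0.15 (SE 0.04, 95% interval -0.25 to -0.05) and did not pass (limma adjusted p = 0.304), on 23908 to 30029 reads per library. Without control replicate 3 the log2 fold change was -0.11 (limma adjusted p = 0.37). The gene yields a membrane receptor and a soluble decoy form, which values per gene do not separate.

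Il1rap (GeneID 25466), the accessory chain that IL-33 and IL-1 receptors share, was at 5.21, 4.95 and 4.17 FPKM across airc1 to airc3 and at 4.13, 4.0 and 3.32 FPKM across airpio1 to airpio3. The gap between the groups was narrow, 4.17 FPKM in control replicate 3 against 4.13 FPKM in PIO replicate 1. The means were 4.78 ± 0.541 and 3.82 ± 0.435 FPKM (SD, n = 3), a difference of -20.1% (log2 fold change -0.29, SE 0.11, limma adjusted p = 0.366). Over the 15 alternative settings the log2 fold change lay between -0.37 and -0.20 for Il1rap and between -0.18 and -0.11 for Il1rl1, with limma adjusted p never under 0.207. Il1rl1 exceeded Il1rap by 39.6 to 56.9 times in FPKM.

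Il1rl1 lies on rat chromosome 9 in a row of interleukin-1 receptor family genes, whose order in RefSeq is Il1r2, Il1r1, Il1rl2, Il1rl1, Il18r1 and Il18rap. Il1r2 and Il1r1, the IL-1 receptors, were listed at 0 in every library, and Il1rl2, an IL-36 receptor gene, did not exceed 0.0212 FPKM. Il1rl1 and the IL-18 receptor genes Il18r1 (50.2 to 53.7 FPKM) and Il18rap (36.1 to 47.0 FPKM) were all abundant. The same stretch held H3f3al3, also listed at 0, so the abundant genes were the 3 that adjoin from Il1rl1 onward. This row was examined after the values had been seen.

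Il4r (GeneID 25084), the IL-4 binding chain, was at 8.10, 8.38 and 9.22 FPKM across airc1 to airc3 and at 8.79, 8.63 and 9.33 FPKM across airpio1 to airpio3. The values interleaved (log2 fold change 0.06, 95% interval -0.10 to 0.21, limma adjusted p = 0.742). Il2rg (GeneID 140924), the common gamma chain of the IL-2, IL-4, IL-7, IL-9, IL-15 and IL-21 receptors, was at 56.1, 55.9 and 57.5 FPKM across airc1 to airc3 and at 54.9, 53.5 and 57.1 FPKM across airpio1 to airpio3. It varied least among the members relative to its mean, with 56.5 ± 0.909 and 55.2 ± 1.82 FPKM (SD, n = 3; log2 fold change -0.03, 95% interval -0.12 to 0.05, limma adjusted p = 0.722). Il2rg exceeded Il4r by 6.12 to 6.92 times. Il13ra1, the chain that pairs with Il4r in the receptor for IL-13, had 2 reads in control replicate 2, 3 reads in PIO replicate 3 and 0 in the other libraries.

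**Figure D2:**
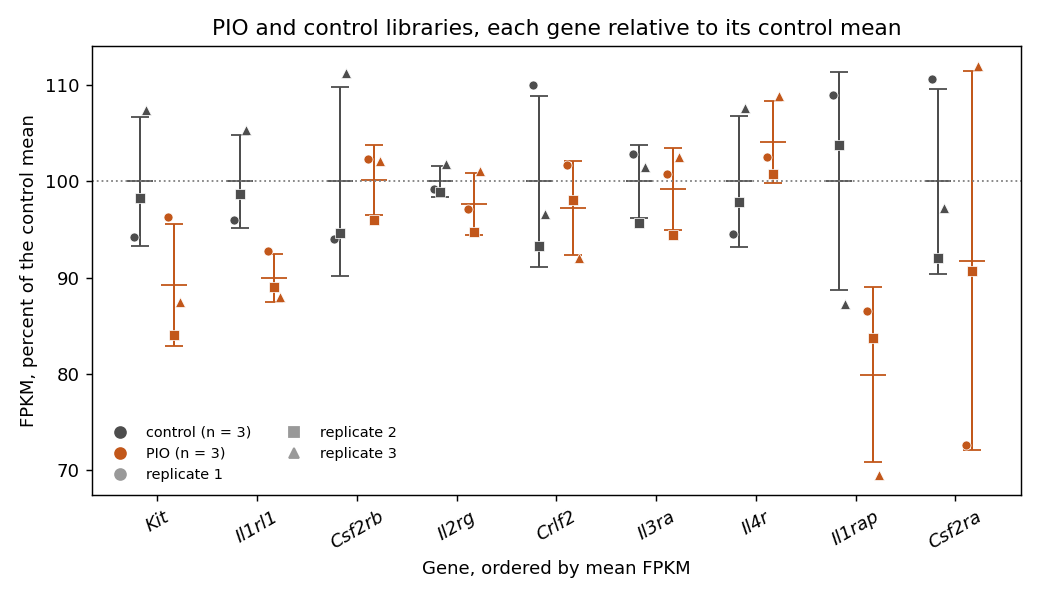
FPKM of the 9 tested members in each library as a percent of the gene's control mean (dotted line); points are libraries, and bars show the group mean ± SD (n = 3). Il1rl1 and Il1rap have every PIO point below every control point, 2 of the 3 Kit points with PIO lie below all control points, and the groups overlap in the other genes.

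RNA for most of the cytokines that these and related receptors bind was scarce. Of 15 ligand genes, 4 were abundant enough to test, and 7, among them Il33, Il5 and Il7, were listed at 0 in all 6 libraries. So were 7172 of all 22601 genes listed. A 0 leaves room for up to 3 reads per library and may also stem from reads assigned elsewhere, since Tnfrsf1a, a receptor gene of most cell types, was listed at 0 too. Tslp had 1 read in each of 2 libraries and Csf2, the GM-CSF gene, 0 to 2 reads. These are the smallest whole reads that fit the FPKM values. Il3 had 1 to 10 reads per library. Il4 was at 1.49 ± 0.593 FPKM without and 2.03 ± 0.662 FPKM under PIO (SD, n = 3; limma adjusted p = 0.566), and Il13 at 1.68 ± 0.504 and 1.55 ± 0.749 FPKM (limma adjusted p = 0.859). Il18, the cytokine that the abundant IL-18 receptor chains bind, was the exception at 112 ± 4.10 and 121 ± 6.28 FPKM (log2 fold change 0.11, limma adjusted p = 0.383).

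Other cytokine receptor genes were given as a list of 29, of which 28 were in the table, 12 could be tested and 9 were listed at 0 in all libraries. Of all 22601 genes listed, 7172 were at 0 in all libraries. None of the 12 tested receptor genes passed, 6 were higher and 6 lower, and the median log2 fold change was -0.01. PIO and control values did not overlap in 41.7% of these 12, against 18.5% of all tested genes. Of them, 3 were higher with PIO, among them Ifngr2, and 2 lower, Il18rap and Il2ra. The most abundant were Ifngr1, the interferon gamma receptor chain (64.9 ± 2.62 and 67.1 ± 0.734 FPKM, SD, n = 3), and the IL-18 receptor pair. Il18rap, the IL-18 accessory chain, was at 45.2 ± 2.27 FPKM without and 38.7 ± 2.25 FPKM under PIO, without overlap (log2 fold change -0.22, limma adjusted p = 0.29). Il18r1 was at 52.0 ± 0.599 and 52.3 ± 1.84 FPKM (limma adjusted p = 0.949). Il2ra, the IL-2 receptor alpha chain (1.28 ± 0.0578 and 0.924 ± 0.217 FPKM, limma adjusted p = 0.379), and Ifngr2 (21.8 ± 1.67 and 23.9 ± 0.895 FPKM, limma adjusted p = 0.423) did not pass either.

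Signalling genes downstream of the receptors were nearly all expressed. All 26 genes of JAK and STAT signalling were tested, 12 higher and 14 lower; the median of their log2 fold changes was -0.02, with none past the threshold. Stat3 (76.0 ± 0.849 and 72.6 ± 0.735 FPKM, SD, n = 3), Stat5a (66.1 ± 1.13 and 69.4 ± 0.869) and Stat5b (51.5 ± 1.29 and 49.0 ± 2.89) were the most abundant of them. Jak2, the kinase bound to Csf2rb, was at 21.3 ± 0.182 FPKM without and 18.3 ± 0.741 FPKM under PIO, without overlap (log2 fold change -0.21, SE 0.05, limma adjusted p = 0.27). Stat2 (log2 fold change 0.14, limma adjusted p = 0.321) and Socs4, a feedback inhibitor gene (-0.34, limma adjusted p = 0.379), had the next smallest p-values. PIO and control values did not overlap in 23.1% of the 26, against 18.5% of all tested genes. Of them, 3 were higher with PIO, among them Stat2 and Stat5a, and 3 lower, among them Jak2 and Stat3.

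Of 30 genes of Kit signalling 28 were tested, 13 higher and 15 lower; the median of their log2 fold changes was -0.02, with none past the threshold. Gata2, a transcription factor gene of the mast cell lineage, was the most abundant at 502 ± 7.58 and 512 ± 11.0 FPKM (SD, n = 3). The phosphatase gene Ptpn6 (171 ± 2.21 and 177 ± 2.30 FPKM) and the kinase gene Mapk3 (98.2 ± 1.37 and 101 ± 2.17 FPKM) followed. Mitf, a transcription factor gene that acts downstream of Kit and on the Kit gene, was at 31.0 ± 1.48 FPKM without and 26.8 ± 0.394 FPKM under PIO, without overlap (log2 fold change -0.21, SE 0.05, limma adjusted p = 0.27). Cbl, a ubiquitin ligase gene that limits Kit signalling (-0.18, limma adjusted p = 0.37), and Spred2, an inhibitor of the RAS and ERK pathway (-0.18, limma adjusted p = 0.382), did not pass. PIO and control values did not overlap in 25% of the 28, against 18.5% of all tested genes. Of them, 3 were higher with PIO, among them Ptpn6, and 4 lower, among them Mitf and Cbl.

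All 18 genes of IL-33 receptor signalling were tested, 7 higher and 11 lower; the median of their log2 fold changes was -0.03. The receptor-associated kinase gene Irak1 (68.1 ± 1.57 and 66.9 ± 1.36 FPKM, SD, n = 3), the adaptor gene Tab2 (54.4 ± 0.702 and 55.3 ± 2.40) and Myd88 (49.7 ± 1.65 and 47.1 ± 2.24) were the most abundant. Map3k7, which encodes the kinase TAK1 that relays IL-33 signals, was at 1.25 ± 0.373 and 0.154 ± 0.0460 FPKM and missed the threshold (log2 fold change -1.40, limma adjusted p = 0.0697). It passed in limma without control replicate 3 (-1.56, adjusted p = 0.0408), with a pseudocount of 0.1 (-2.39, adjusted p = 0.0404), under TPM scaling (-1.88, adjusted p = 0.0357) and in limma-voom on the recovered reads (-2.99, adjusted p = 0.0136). It did not pass in the other 10 alternatives that tested it, with limma adjusted p up to 0.302 without PIO replicate 2, 0.263 without control replicate 1, 0.221 without a filter and 0.173 with the replicate block. With a pseudocount of 1 the difference shrank to -0.95 on the log2 scale (limma adjusted p = 0.0859). Chuk, an IκB kinase gene (-0.11, limma adjusted p = 0.442), and Tnfaip3, an NF-κB feedback gene (0.14, limma adjusted p = 0.444), did not pass. PIO and control values did not overlap in 11.1% of the 18, against 18.5% of all tested genes. These were Tnfaip3, higher with PIO, and Map3k7, lower.

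**Figure D3:**
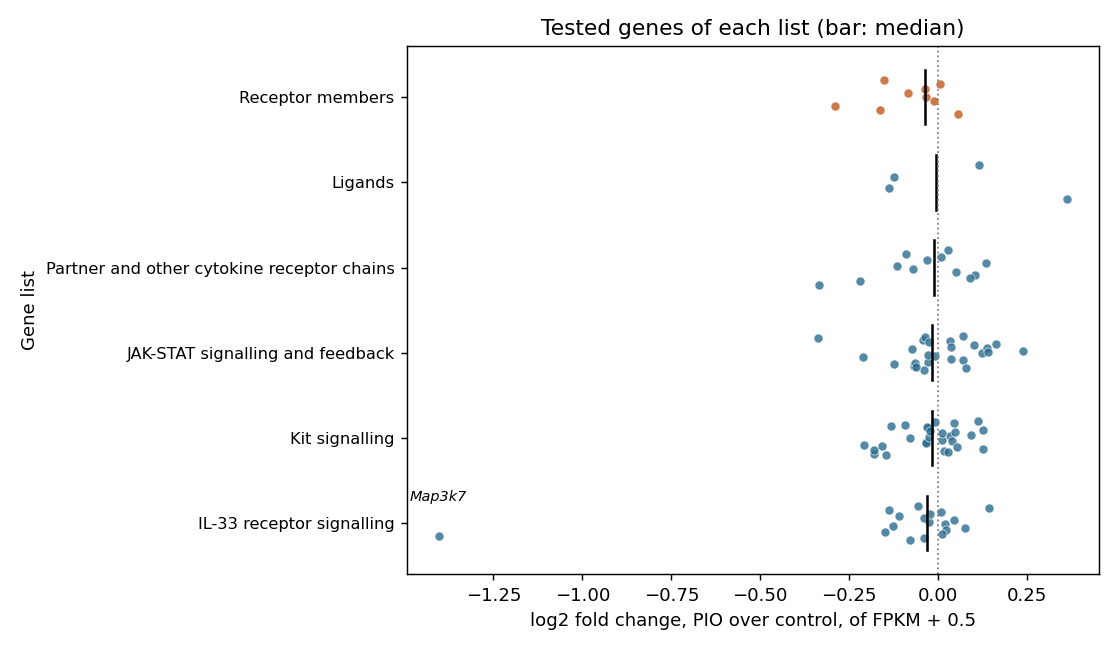
Log2 fold change of PIO over control, of FPKM + 0.5, for each tested gene (points) of the receptor members and of 5 lists, with the list median as a black bar. All 6 medians lie between -0.04 and 0, and Map3k7 at -1.40 is the point farthest from 0.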

How the data were processed

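The 6 RNA-seq libraries (3 control, 3 PIO) were made from TRIzol-extracted RNA with a stranded mRNA kit, per the labels' protocols. The authors deposited FPKM per gene and library. HISAT2 2.2.1.0, BWA 0.7.5a, Cufflinks and HTSeq are named in the submitters' processing notes, without roles; the aligner and counter behind the values are not given in the sources used here. The same notes name a human build, while the table's names and GeneIDs are those of the rat, so the build behind the values is unclear. Reads were recovered as whole multiples of the FPKM of 1 read, with a whole gene length, for all 15429 genes above 0 (tolerance 5e-04 of a read, or 2e-07 of the reads where that is more). The smallest gene length that fits was kept, so reads that share a divisor across a gene's libraries are minimum values. Recovered reads give depth and counting intervals.

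Of the deposited FPKM, genes with a mean of at least 0.5 entered the test, limma 3.58.1 (R 4.3.3) on log2(FPKM + 0.5) (group as the only term, variance trend, two-sided, Benjamini-Hochberg at 0.05). This scale understates the fold changes of low genes. The code was tested on simulated data. Alternatives were pseudocounts of 0.1 and 1, no filter, a minimum of 1 FPKM, median-of-ratios and TPM scaling, no variance trend, a replicate block, limma-voom on recovered reads, and each library left out in turn. Beside the members, the text names the 3 most abundant and the 3 genes with the smallest p of each list, and the 3 genes most like the most abundant member. Members and lists were chosen with earlier results of these data known. Promoter windows are from RefSeq (GRCr8). Python 3.11.15 with pandas 2.3.3, numpy 2.4.6 and matplotlib 3.10.9 drew the figures.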

Additional observations from a re-analysis of the deposited data

How the results depend on the processing

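No tested member passed in any of the 15 alternative settings (Csf2ra was not tested at a minimum of 1 FPKM). Kit, Il1rl1, Il1rap and Il2rg stayed lower with PIO and Il4r stayed higher in all 15. The members' sign turned in 11 values and was kept in 123; the cause was not tested. For Csf2rb the log2 fold change was -0.00057 with median-of-ratios scaling and -0.023 with TPM scaling. With 1 library left out it ranged from -0.036 to 0.085 for Csf2rb, from -0.040 to 0.023 for Il3ra, from -0.18 to 0.010 for Csf2ra and from -0.084 to 0.032 for Crlf2. Among the 26 named genes of the lists, 10 of 389 values turned sign. With TPM scaling these were Il18r1 (-0.021), Gata2 (-0.0022) and Tab2 (-0.0069), and with 1 library left out Il13 (-0.41 to 0.021), Il18r1 (-0.012 to 0.036) and Tab2 (-0.013 to 0.044).

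Members whose groups do not overlap, in either direction, numbered 2 to 4 with 1 library left out, where the share of all tested genes was not counted. Of all genes, 1 passed without a filter (1 higher), 2 without a variance trend (2 higher) and 7 in limma-voom on the recovered reads (1 lower), against 4 in limma on the FPKM; 1 gene was lower with a pseudocount of 0.1 and 1 with TPM scaling. Leaving out 1 library gave 2 to 4 genes, 2 to 4 higher and 0 to 2 lower. With the replicate number as a block, 3 genes and 0 members passed. Same-numbered libraries did not deviate together (correlations across genes of -0.068, 0.028 and 0.078), so the numbers were not taken as pairs. Depth limits Kitlg, with 2 to 7 reads per library, and Csf2ra, with 22 to 36.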
